A study of Homo sapiens with 9 samples.

Results

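Retinoic acid is made, carried, sensed and destroyed by a small set of proteins, and 10 of their genes were followed here by symbol in a table of 62710 genes: DHRS3, RDH10, CYP26A1, CYP26B1, CYP26C1, CRABP1, CRABP2, RARA, RARB and RARG. All 10 had enough counts to be among the 23075 genes tested. They were chosen from their CPM (counts scaled to library size) in all 9 libraries, and above all from the contrast of the 3 libraries numbered 3 against the 6 numbered 1 or 2, so that contrast is given below as a description and with no test. All libraries came from the established human embryonic stem cell line H9, of wild-type (WT) genotype. Every culture spent 72 h in mTeSR1, a medium that keeps cells pluripotent, on a Matrigel-coated plate of the silicone PDMS. Each then spent 48 h in N2B27 medium with SB431542 and LDN, inhibitors of TGF-beta and BMP receptors whose joint use is called dual SMAD inhibition and turns pluripotent cells into neuroepithelium. For a last 24 h, under the same inhibitors, the plate was bent concave, bent convex or left flat as the control, with 3 libraries of each shape. The labels do not say whether the B27 supplement held vitamin A, what the replicate numbers stand for, or whether libraries came from separate cultures. The spread on which p-values rest may therefore be technical.

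Vitamin A, or retinol, is oxidised to retinal by RDH10, and retinal is reduced back to retinol by DHRS3. Retinal dehydrogenases of the ALDH1A family turn retinal into retinoic acid. CRABP1 and CRABP2 bind retinoic acid in the cytoplasm, the receptors RARA, RARB and RARG pair with RXR partners on DNA, and the CYP26 enzymes degrade the acid. In the early nervous system retinoic acid gives neural cells a posterior, hindbrain or spinal cord character, and the CYP26 enzymes keep the anterior part clear of it. DHRS3, CYP26A1 and RARB are textbook targets of the acid itself, so their mRNAs are often read as a sign of its activity.

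Receptor pairs bind 2 copies of a short half-site, often a direct repeat spaced by 5 bases (DR5). RefSeq promoter windows (GRCh38.p14), each running from 250 bases before to 50 bases after a transcription start, were searched on both strands for the half-site AGGTCA, for its variant AGTTCA, for the form GGGTCA or for the form GGTTCA, and for direct repeats of any pair of them spaced by 1, 2 or 5 bases. The table held 17 windows for 9 of the 10 genes, and none for RDH10. Direct repeats were found in 2 genes, RARB and CYP26A1, each with the spacing of 5. They are shown because both genes are classic retinoic acid targets, with the half-sites in capitals. The RARB stretch lies at chr3:25428204-25428232 on the plus strand, its repeat 53 to 37 bases before the start at 25428263. The windows of its other starts held no direct repeat. The CYP26A1 stretch lies at chr10:93073797-93073825, also given on the plus strand. Its repeat is on the opposite strand and 90 to 74 bases before the start at 93073893. That places it downstream of the gene's other start, 93073475, whose window held no half-site.
RARB: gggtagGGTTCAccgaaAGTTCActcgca
CYP26A1: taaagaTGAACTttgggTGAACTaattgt
Of all 35116 windows in the table, 31 (0.0883%) held such a repeat spaced by 5. DHRS3, the gene of the 10 that differed most between number 3 and the rest, had only single half-sites, 1 in each of 2 of its 3 windows. They lie 172 and 171 bases before 2 of its starts, at chr1:12616946-12616971 and chr1:12596769-12596794, both printed along the gene's minus strand.
DHRS3 first window: ttttttggcaGGTTCAgagttgatcc
DHRS3 second window: cttgcactttTGACCTtccccacacc
A single half-site is common, being present in 38.6% of all windows. No direct repeat of these letters was found in the windows of DHRS3, CYP26B1, CYP26C1, RARA, RARG, CRABP1 or CRABP2, which says nothing of binding elsewhere.

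Compared per kilobase of transcript, the carriers were the most abundant transcripts of the group. CRABP1 had a median of 258.5 CPM per kilobase over the 9 libraries (175.4 to 757.7), and CRABP2 had 180.4 (99.45 to 240.4). The ranges of these 2 genes overlapped. CYP26A1 followed at 36.2 CPM per kilobase (28.6 to 60.9), then the receptor RARG at 21.1 (19.2 to 26.3). Neither range met that of the genes next to it in this order of medians. RARA (median 8.77), DHRS3 (5.61), CYP26C1 (3.17) and RDH10 (2.51) formed the middle of the order, where each gene overlapped the next. The DHRS3 range (3.30 to 35.35) also reached those of RARG and CYP26A1. In flat 3, concave 3 and convex 3 DHRS3 was above RARG. The lowest levels were those of RARB, at 0.151 CPM per kilobase, and CYP26B1, at 0.0907, whose ranges also overlapped. Among CYP26 enzymes the order was thus CYP26A1, CYP26C1 and CYP26B1, and among receptors RARG, RARA and RARB, with no overlap within either family. RARB and CYP26B1 rested on few reads, 22 to 38 counts per library for RARB and 11 to 112 for CYP26B1.

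**Figure D1:**
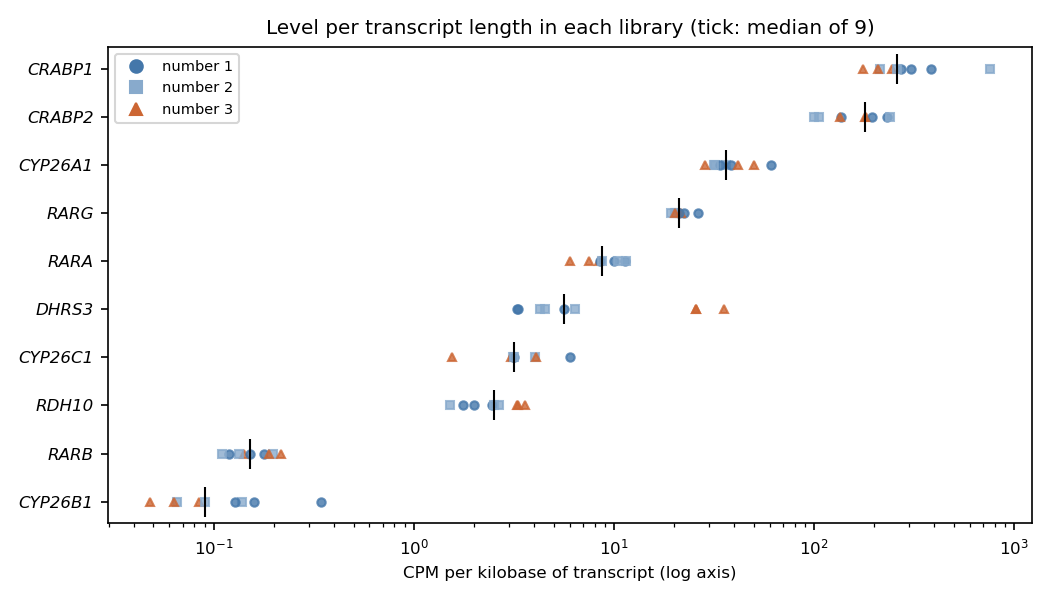
CPM per kilobase of transcript on a log axis, 1 point per library, coloured and shaped by replicate number, with a tick at the median of the 9 libraries. CRABP1 and CRABP2 lie highest and RARB and CYP26B1 lowest, and the 3 DHRS3 points of number 3 stand to the right of its other 6.

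DHRS3 (ENSG00000162496, 1:12567910-12617731, minus strand; this and all later gene positions are GRCh38, GENCODE v29) encodes the retinal reductase. Its mRNA was at 9.67, 11.03 and 44.2 CPM in flat libraries 1, 2 and 3, at 5.72, 7.36 and 60.9 CPM in the concave ones, and at 5.68, 7.82 and 44.5 CPM in the convex ones. The 3 libraries numbered 3 were far above the other 6 and did not overlap them, whatever the plate shape. Within a shape, library 3 stood at 4.28 times the mean of libraries 1 and 2 on flat plates, at 9.31 times on concave plates and at 6.59 times on convex plates. Each of these ratios rests on 1 library numbered 3, so their differences could not be tested. Over all shapes the means were 49.9 ± 9.54 CPM (SD, n = 3) in number 3 and 7.88 ± 2.14 CPM (n = 6) in the rest, a log2 difference of 2.70 (SE 0.20).

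RDH10 (ENSG00000121039, 8:73294612-73325281), the enzyme that opposes DHRS3, was also higher in number 3, by less. It was at 7.93, 6.02 and 13.0 CPM in the flat libraries, 6.96, 10.6 and 13.1 CPM in the concave ones, and 9.68, 9.93 and 14.3 CPM in the convex ones. The groups did not overlap, with means of 13.5 ± 0.696 CPM (SD, n = 3) against 8.51 ± 1.82 CPM (n = 6) and a log2 difference of 0.68 (SE 0.17). DHRS3 and RDH10 were the only 2 of the 10 genes with every number 3 library above all others, and 11.7% of all genes tested had that order.

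**Figure D2:**
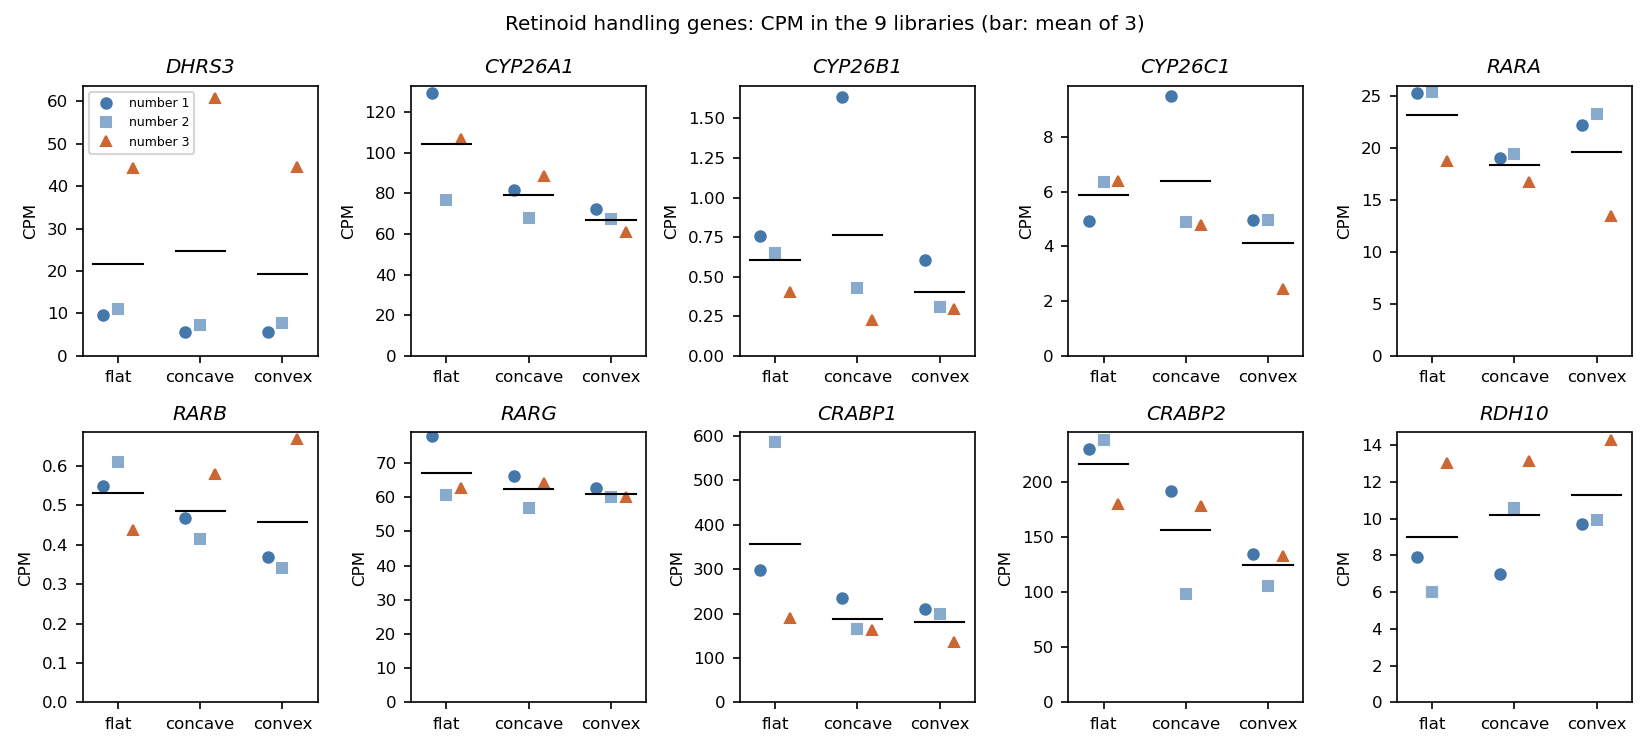
CPM (linear axis from 0) of the 10 genes in each library by plate shape, with markers for the replicate number and a bar at the mean of the 3 libraries of a shape. Number 3 is highest in every shape for DHRS3 and RDH10 and lowest in every shape for RARA, CRABP1 and CYP26B1.

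CYP26A1 (ENSG00000095596, 10:93073475-93077890), the most abundant CYP26 transcript in these libraries, did not share the pattern of DHRS3. Its level was 129.4, 76.9 and 106.6 CPM on flat plates, 81.8, 67.7 and 88.5 CPM on concave plates, and 72.2, 67.3 and 60.8 CPM on convex plates. Number 3 libraries (85.3 ± 23.0 CPM, SD, n = 3) overlapped the other 6 (82.6 ± 23.6 CPM, n = 6), though convex 3 was the lowest library. The log2 difference was 0.03 (SE 0.17). The 2 other enzymes of the family were lower on average in number 3 with overlap. CYP26C1 (ENSG00000187553, 10:93060808-93069536), which lies beside CYP26A1 on chromosome 10, ran from 2.43 to 9.50 CPM and had a log2 difference of -0.45 (SE 0.27), which was -0.18 without convex 3, -0.30 without concave 1 and -0.82 without flat 3. CYP26B1 (ENSG00000003137, 2:72129238-72148038) ran from 0.228 to 1.63 CPM, with its highest value in concave 1. It was lowest in number 3 within each shape, though convex 3 (0.299 CPM) was close to convex 2 (0.310 CPM). Its log2 difference was -1.15 (SE 0.50), or -0.74 without concave 3.

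Among the receptors, RARA was the 1 gene of the 10 with all number 3 libraries below all others, an order seen in 12.5% of all genes tested. RARA (ENSG00000131759, 17:40309192-40357643) was at 25.3, 25.4 and 18.7 CPM on flat plates, 19.0, 19.5 and 16.7 CPM on concave plates, and 22.2, 23.3 and 13.4 CPM on convex plates. The highest number 3 value and the lowest of the others were thus close together, and the log2 difference was -0.46 (SE 0.13). RARG (ENSG00000172819, 12:53210567-53232980), the most abundant receptor, varied little, from 56.8 to 77.8 CPM, and differed by -0.04 (SE 0.12). RARB (ENSG00000077092, 3:25174332-25597932), the receptor gene with the DR5 shown above, was at 0.436 CPM in flat 3 against 0.549 and 0.610 in flat 1 and 2. It was at 0.580 and 0.668 CPM in concave 3 and convex 3, so number 3 was lowest on flat plates and highest on both curved ones. Its log2 difference was 0.33 (SE 0.32), and was 0.01 without convex 3 and 0.64 without flat 3.

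The carrier genes were split. CRABP1 (ENSG00000166426, 15:78340324-78348230) was lowest in number 3 within each shape, at 189.8 CPM on flat, 161.9 on concave and 135.4 on convex plates, and its log2 difference was -0.69 (SE 0.24). The groups still overlapped, since concave 2 was at 164.8 CPM and flat 3 above it. CRABP2 (ENSG00000143320, 1:156699606-156705816) averaged 164.4 ± 26.8 CPM in number 3 (SD, n = 3) and 166.8 ± 62.0 CPM in the rest (n = 6), a log2 difference of 0.03 (SE 0.21).

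**Figure D3:**
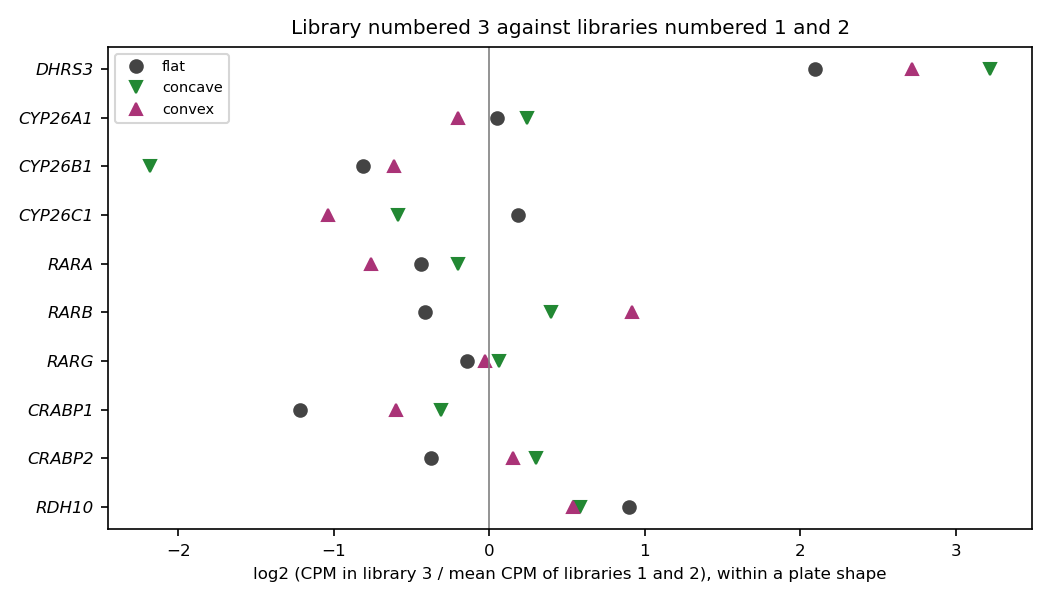
Log2 ratio of CPM in library 3 to the mean CPM of libraries 1 and 2, computed within each plate shape, for the 10 genes (1 point per shape). All 3 points of DHRS3 lie above 2, CYP26A1 and RARG lie near 0 on both sides, and RARB differs in direction between flat and curved plates.

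The 10 genes together had a median log2 difference of -0.0013 between number 3 and the rest, beside 0.0002 for all genes, with 5 above 0 and 5 below. At an adjusted p under 0.05 (edgeR, Benjamini-Hochberg over all genes) 16.3% of all genes were called in this contrast, 7.59% higher and 8.68% lower. The 3 libraries were thus set apart in many genes besides these. The count, 3756, depended on single libraries and was 1048 when convex 3 was left out, 2163 when convex 1 was, 2331 for flat 3 and 2383 for concave 3. They were singled out after they had been seen to differ, which no p-value allows for.

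Libraries numbered 1 and 2 were compared as well. The rule did not name this contrast or those of plate shape, but the genes were chosen with the CPM of all 9 libraries known, so neither is independent of that choice. No gene of the 10 was called between number 2 and number 1 with plate shape as a term (edgeR, 0 of all genes called; at an unadjusted p under 0.05, 1 of 10 against 8.54% of all genes). That 1 gene was CYP26B1, with a log2 difference of -1.09 (SE 0.44, adjusted p = 0.557), or -0.48 without concave 1. DHRS3 was 8.73 ± 2.00 CPM in number 2 and 7.02 ± 2.29 CPM in number 1 (SD, n = 3 each), a log2 difference of 0.33 (SE 0.22, 95% interval -0.17 to 0.83, adjusted p = 0.670). It was 0.55 without flat 1 and 0.20 without concave 1. CYP26A1 was 70.6 ± 5.39 CPM in number 2 and 94.5 ± 30.6 CPM in number 1, a log2 difference of -0.37 (SE 0.16, adjusted p = 0.582), which was -0.24 without flat 1 and -0.21 without flat 2.

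The comparisons the study set out to make are those of plate shape, and none of the 10 genes passed an adjusted p of 0.05 in any of them (edgeR, 0% of all genes called in each). CYP26A1, the acid-degrading enzyme, averaged 104.3 ± 26.3 CPM on flat, 79.3 ± 10.6 CPM on concave and 66.8 ± 5.72 CPM on convex plates (SD, n = 3 each). All 3 convex libraries lay below all 3 flat ones, as held for 2 of the 10 genes, CYP26A1 and CRABP2, and for 7.76% of all genes tested. No gene of the 10 lay wholly above flat on convex plates (8.91% of all genes did), or wholly above or below it on concave plates (3.78% and 2.96%). The log2 fold change on convex plates was -0.64 (SE 0.20, 95% interval -1.09 to -0.20, adjusted p = 0.513). On concave plates it was -0.39 (SE 0.20, interval -0.84 to 0.05, adjusted p = 0.841), with overlap between the groups. Both contrasts use the same flat libraries, of which flat 1 was the highest. Without flat 1 the concave value was -0.21 and the convex one -0.46, and without flat 2 they were -0.57 and -0.83. With the replicate number as a block (edgeR), CYP26A1 was at -0.38 on concave plates (interval -0.75 to -0.0055, adjusted p = 0.506). On convex plates the block gave -0.61 (interval -0.98 to -0.24, adjusted p = 0.264).

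The carriers had the other large differences by shape. CRABP2 was at 230.3, 238.5 and 180.7 CPM on flat plates, 192.6, 98.7 and 179.0 CPM on concave plates, and 135.0, 105.6 and 133.4 CPM on convex plates. Its convex log2 fold change was -0.80 (SE 0.25, interval -1.34 to -0.25, adjusted p = 0.513), and its concave one was -0.47 (SE 0.24, adjusted p = 0.841), or -0.22 without concave 2. CRABP1 was at 297.2, 585.0 and 189.8 CPM on flat plates, 235.7, 164.8 and 161.9 CPM on concave plates, and 210.8, 199.5 and 135.4 CPM on convex plates. The shapes overlapped, and flat 2 stood far above every other library. The log2 fold change of CRABP1 was -0.93 on concave (SE 0.36, interval -1.74 to -0.12, adjusted p = 0.841) and -0.97 on convex plates (SE 0.36, interval -1.78 to -0.16, adjusted p = 0.513). Without flat 2 these values were -0.37 and -0.43. Flat 2 had a marked excess of short transcripts: the median log2 deviation of its 886 tested genes under 1000 bases was 0.73, against -0.23 to 0.14 in the other libraries. For 4123 genes of at least 4000 bases it was -0.42, against -0.08 to 0.13 elsewhere. The CRABP1 and CRABP2 transcripts are 772 and 992 bases long, and those of RDH10 and CYP26B1 are 3949 and 4732. The part of these deviations in the values of the 4 genes was not tested.

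**Figure D4:**
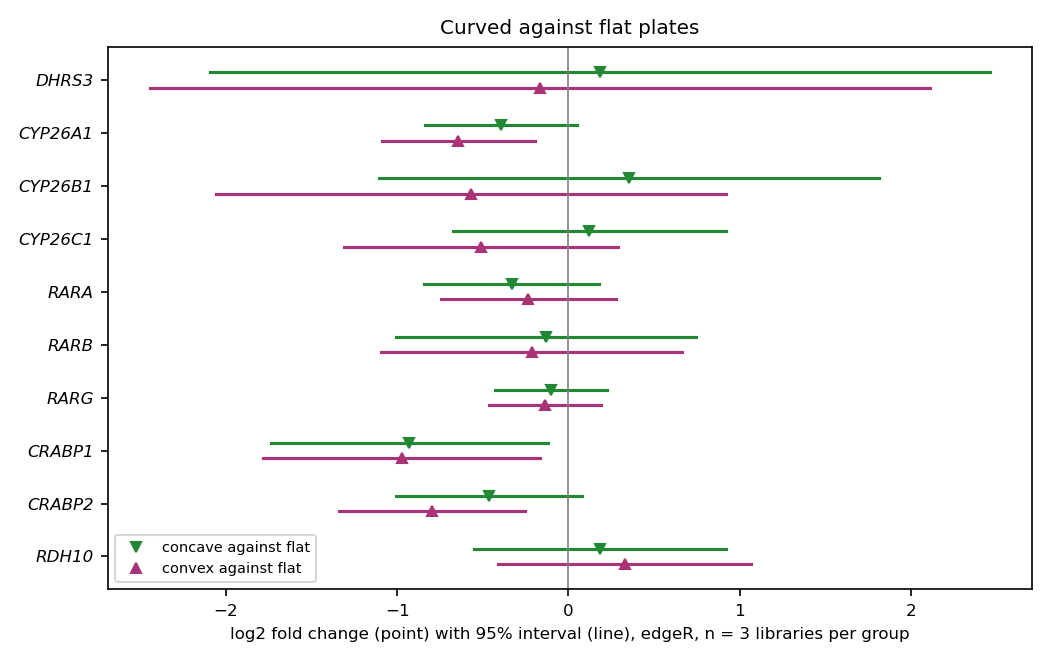
Log2 fold change of each gene on concave and convex against flat plates (edgeR, 3 libraries per shape), with lines for the 95% intervals. The DHRS3 intervals run past 2 in both directions, and those of CYP26A1 and CRABP2 on convex plates and of CRABP1 on both plates lie below 0.

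For DHRS3 the shapes could hardly be compared, since the replicate number set the spread. Means were 21.6 ± 19.6 CPM on flat, 24.7 ± 31.4 CPM on concave and 19.3 ± 21.8 CPM on convex plates (SD, n = 3 each). The log2 fold change was 0.18 on concave (interval -2.09 to 2.46, adjusted p = 0.985) and -0.17 on convex plates (interval -2.44 to 2.11, adjusted p = 0.958). With the replicate number as a block the concave estimate changed sign, to -0.29 (interval -0.79 to 0.21), and the convex one was -0.44 (interval -0.94 to 0.06). In numbers 1 and 2 every curved library was below the flat library of its number, while concave 3 was above flat 3 and convex 3 was at nearly the same level.

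In the remaining 6 genes the concave and convex estimates lay between -0.57 (CYP26B1, convex, SE 0.67) and 0.35 (CYP26B1, concave, SE 0.66). RARG had the narrowest intervals, -0.43 to 0.23 on concave and -0.47 to 0.19 on convex plates, and RARA had -0.84 to 0.18 and -0.75 to 0.28. RDH10 was at -0.55 to 0.92 and -0.41 to 1.06. At an unadjusted p under 0.05, 1 of the 10 genes (CRABP1) stood out on concave plates, where 4.54% of all genes did, and 3 (CYP26A1, CRABP1, CRABP2) on convex plates, where 9.25% did. The median log2 fold change over the 10 genes was -0.12 on concave and -0.37 on convex plates, against 0.01 for all genes in both contrasts. With the replicate block these medians were -0.22 and -0.51, against 0.01 for all genes again. Between concave and convex plates the smallest unadjusted p was 0.109, for CYP26C1 (log2 0.63, SE 0.36, adjusted p = 1.00), so 0 of the 10 genes reached 0.05, as did 0.282% of all genes. In the F test over the 3 shapes the unadjusted p was under 0.05 for CYP26A1, CRABP1 and CRABP2, 3 of 10 against 3.89% of all genes, each with an adjusted p of 0.971. With the replicate block the unadjusted counts were 3 of 10 on concave plates (8.87% of all genes), 3 on convex plates (18.3%), 0 between concave and convex plates (0.637%) and 3 in the F test (8.82%), and no adjusted p of the 10 was under 0.264.

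The other genes of the pathway, in 4 lists, were read in the number 3 contrast, again as a description. The counts called in each list stand beside 7.59% of all genes called higher and 8.68% called lower. Of 20 listed enzymes of retinol and retinal, 15 were tested, 2 were called higher and 2 lower, and the median log2 difference was -0.12. RDH11, a retinal reductase, was at 139.2 CPM in number 3 and 90.8 CPM in the rest (log2 0.62, SE 0.11). ALDH1A2, a maker of retinoic acid, was at 0.659 against 2.21 CPM (log2 -1.73, SE 0.29). The other 2, named here only because they complete the count, were ALDH1A3 (0.843 against 0.264 CPM), which also makes the acid, and RDH16 (0.316 against 1.11 CPM). ADH5, the most abundant gene of this list in CPM, had a log2 difference of -0.12 (SE 0.12). ALDH1A1, the other dehydrogenase of the family, was at 0.414 against 0.423 CPM.

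Of 14 genes of storage and transport, 8 were tested, 2 were called higher and 0 lower, with a median log2 difference of 0.38. STRA6, the cell surface receptor that takes up retinol from its plasma carrier, was at 28.5, 34.8 and 34.2 CPM in flat 3, concave 3 and convex 3. The other 6 libraries ran from 16.5 to 23.0 CPM, so the groups did not overlap (log2 0.73, SE 0.14). FABP5, which can carry retinoic acid to other nuclear receptors, was at 74.1 against 42.6 CPM (log2 0.81, SE 0.20). SCARB1, a lipoprotein receptor that takes up carotenoids, was at 37.5 against 29.9 CPM and was not called.

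Of 21 receptor partners and coregulators, 20 were tested, and 0 were called higher and 3 lower, against 7.59% and 8.68% of all genes. The median was 0.08. RXRA, a partner of the retinoic acid receptors, was at 57.2 against 78.0 CPM (log2 -0.45, SE 0.12), close to the log2 difference of RARA. TBL1XR1, a subunit of corepressor complexes, was at 115.6 against 155.6 CPM (log2 -0.43, SE 0.11). NR2F2, an orphan receptor, was at 0.409 against 2.47 CPM (log2 -2.60, SE 0.70), and its libraries ran from 0.157 to 5.22 CPM. EP300 and TBL1X, the 2 most abundant of the list in CPM, were not called.

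Of 24 genes known to respond to retinoic acid, 10 were tested, 2 were called higher and 1 lower, with a median of -0.21. NAV2, a cytoskeletal regulator, was at 56.9, 48.4 and 75.6 CPM in flat 3, concave 3 and convex 3, above the 13.1 to 38.8 CPM of the other 6 libraries (log2 1.14, SE 0.21). MEIS2, a homeobox cofactor, was at 2.28 against 1.32 CPM (log2 0.78, SE 0.24), and TGM2, a transglutaminase, at 0.950 against 2.91 CPM (log2 -1.60, SE 0.45). RET, a receptor tyrosine kinase, was at 57.0 against 60.8 CPM and was not called. The 12 HOX genes of the list, posterior identity genes that retinoic acid induces, were all too low to test: 8 had 0 counts in every library and the others had 14 counts in all, with at most 6 in a library. For the genes with no read, a library's count of 0 allows up to 3 counts, counting error only. In the shape contrasts and between numbers 2 and 1, 0 genes of these 4 lists were called.

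**Figure D5:**
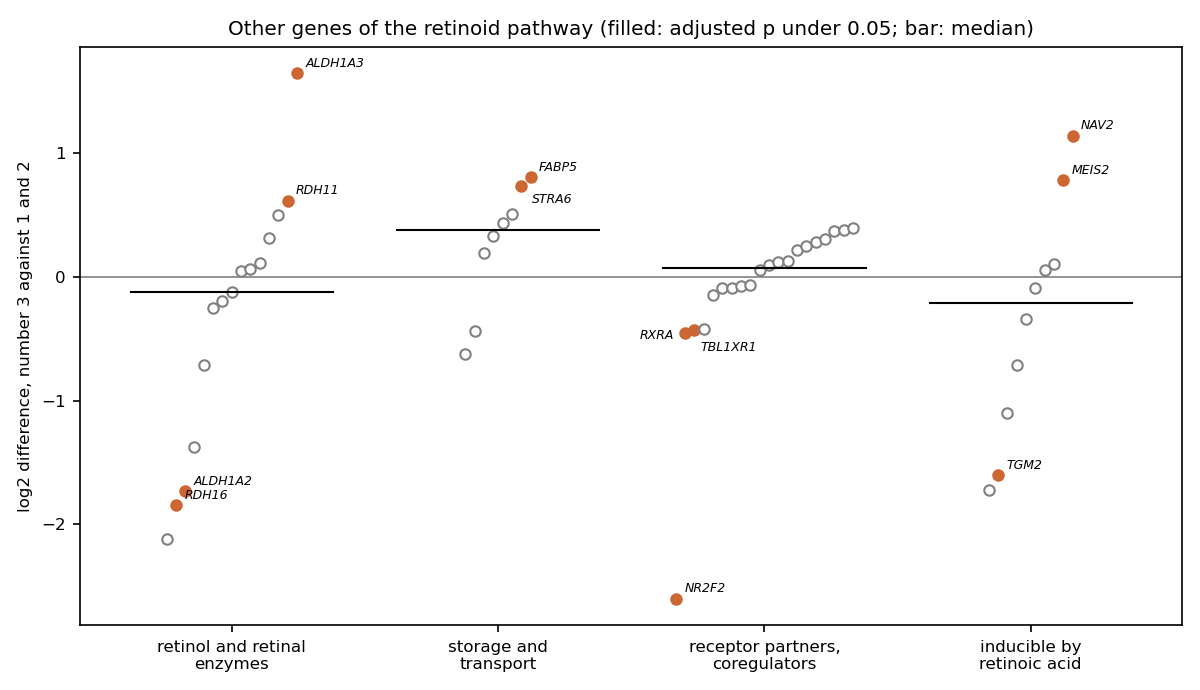
Log2 difference between number 3 and numbers 1 and 2 for the tested genes of 4 other retinoid lists (1 point per gene; filled points have an adjusted p under 0.05 in edgeR; bars are list medians). NAV2 and ALDH1A3 lie highest among the called genes and NR2F2 lowest, and the list medians lie between -0.21 and 0.38.

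Cell type markers moved with the same libraries. Their counts called also stand beside 7.59% of all genes called higher and 8.68% called lower. In number 3, 9 of 14 tested pluripotency markers were called higher and 0 lower, and their summed level was 5304 to 5429 CPM against 3532 to 3936 CPM in the other 6. POU5F1 was at 496 against 268 CPM, PRDM14 at 69.7 against 30.8 CPM and NANOG at 0.325 against 0.0163 CPM. Early neuroectoderm markers were called lower in 7 and higher in 0 of 11, with sums of 522 to 773 CPM against 1478 to 2697 CPM, which included SIX3 at 33.8 against 154 CPM, PAX6 at 1.16 against 4.31 CPM and SOX1 at 2.97 against 2.90 CPM. Reads summed over each of these sets were thus present in all libraries. The sums do not show that each gene of a set was present, and NANOG was near 0 outside number 3. Non-neural ectoderm markers were called higher in 5 and lower in 1 of 9 (sums 938 to 1085 against 474 to 879 CPM), though defining genes were near 0, with at most 6 counts in a library for TFAP2A and 4 for TP63, and GATA3 was at 0.359 against 0.194 CPM. A large part of that difference in sums came from EPCAM, at 278.2 CPM in number 3 against 55.85 CPM in the rest.

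Amnion and trophectoderm markers were called higher in 3 and lower in 0 of 5 tested (125 to 198 against 83.4 to 99.8 CPM), with CDX2 and ISL1 at no more than 4 and 13 counts in a library, VTCN1 at 2.65 against 1.46 CPM, and CGA, 1 of the 10 listed, at 0 throughout. Neural crest markers were called higher in 1 and lower in 2 of 8 (29.02 to 33.8 against 54.5 to 74.3 CPM), with SOX10 at 6.90 against 10.9 CPM, PAX3 at 0.952 against 1.09 CPM and FOXD3 at 0.540 against 0.0178 CPM. Mesoderm and endoderm markers were called higher in 3 and lower in 1 of 7 (10.6 to 15.8 against 4.41 to 7.11 CPM), with TBXT at 1.45 against 0.737 CPM, MIXL1 at 0.217 against 0.228 CPM and SOX17 at no more than 2 counts. Neuronal markers were called higher in 1 and lower in 3 of 5 (51.0 to 60.5 against 61.2 to 83.7 CPM), with DCX at 15.5 against 27.8 CPM, STMN2 at 4.33 against 12.8 CPM and ELAVL4 at 0.911 against 1.57 CPM. The part of these markers in the values of DHRS3, RDH10 and RARA was not tested, and in bulk RNA fewer cells of a type and less RNA per cell cannot be told apart.

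The genes whose pattern over the 9 libraries was nearest to that of DHRS3 were sought among 11953 genes averaging at least 5 CPM, by the root mean square difference of log2 deviations from each gene's own mean. EPCAM, an epithelial adhesion molecule that is also on the non-neural ectoderm list, was nearest (0.289), at 256.1, 314.1 and 264.6 CPM in flat 3, concave 3 and convex 3 and between 47.6 and 77.6 CPM elsewhere. Which cells it marked here was not tested. PDZD4 (0.358), NMRK2 (0.387), the small GTPase RAB17 (0.395) and ENSG00000289479 (0.428) followed. For CYP26A1 the nearest were the membrane metalloprotease MMP14 (0.152), the serotonin receptor subunit HTR3A (0.155), the potassium channel subunit KCNS3 (0.163), THEMIS2 (0.163) and elastin, ELN (0.169). No gene stood on both lists.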

How the data were processed

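The table deposited by the authors holds unnormalized counts for each gene, for which the labels name HISAT2, featureCounts and GRCh38, from poly-A selected, strand-specific Illumina TruSeq libraries. Tool versions, the annotation and the strand option: not given in the sources used here. Without the strand setting, reads of overlapping and antisense genes cannot be told apart. Each of the 9 columns was matched to its library by shape and number, with 0 other per-sample columns left aside. Library totals were 49420082 to 64763412 counts. No pair of replicates agreed within sampling noise (chi-square per degree of freedom 19.7 to 284.6).

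Tests were run with edgeR 4.0.16 in R 4.3.3 (filterByExpr, TMM, robust quasi-likelihood fit of all 9 libraries, common biological coefficient of variation 0.329), two-sided, with Benjamini-Hochberg adjustment over 23075 genes and a threshold of 0.05. CPM used TMM-scaled library sizes, and lengths are median principal transcripts of GENCODE v29. Plate shape was tested with 1 coefficient per shape, number 3 with shape as a term, and number 2 against 1 with shape and number as terms. The members, lists and tests were chosen with earlier results of these data known. Genes named were the 10 members, up to 3 called genes per direction of each retinoid list with at least 1 CPM on average and its 2 most abundant, 3 defining markers of each marker list, and 5 nearest patterns for DHRS3 and CYP26A1; 1 gene the rule selects is not reported here. 

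Same-number libraries were checked for pairing by the correlation of log2 deviations from the group mean: in the order of the numbers, flat with concave libraries gave r = 0.493, 0.0339 and 0.397, flat with convex 0.509, 0.493 and 0.701, and concave with convex 0.709, 0.414 and 0.710. A minimum of 0.1 for every number was thus met by the last 2 pairs of shapes only. On simulated counts for the 23075 genes, the concave against flat test recovered 39% of 2-fold and 80% of 4-fold changes. Those counts held no difference between replicate numbers, and their spread came from the fit with the replicate block. The main fit had a larger spread (median SE 0.221 in genes averaging at least 5 CPM, against 0.166 with the block). Recovery in the data may thus be lower. Alternatives included DESeq2 1.42.0, limma 3.58.1 (voom), other scalings and filters, the replicate block and each library left out in turn.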

Additional observations from a re-analysis of the deposited data

How the results depend on the processing

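No member was called in any shape contrast or between numbers 2 and 1 under any alternative run; a minimum of 1 CPM in 3 libraries left 8 of them to test. The number 3 differences of the 10 genes moved by less than a spread between plate shapes in all 148 alternatives. That spread was the SD, over the shapes, of the log2 ratio of library 3 to the mean of libraries 1 and 2. It rests on 3 values per gene and is wide for several of the genes. It does not measure the spread between replicates. With a library left out DHRS3 ran from 2.39 to 2.96, RARB from 0.01 to 0.64, CYP26C1 from -0.82 to -0.18 and CYP26B1 from -1.42 to -0.74. Values near 0 changed sign: CYP26A1 (-0.10 to 0.15), CRABP2 (-0.13 to 0.20) and RARG (-0.11 to 0.03), and with library size only CYP26A1 was -0.07 and CRABP2 -0.07. The DHRS3 log2 fold change on concave plates (0.18) was -0.40 with voom, -0.29 with the replicate block and -0.28 with a term for number 3, which was added after seeing the data, and ran from -1.73 to 1.24 with a library left out. On convex plates it ran from -1.68 to 0.87. Between numbers 2 and 1, RARA was -0.011 scaled by library size only, and with a library left out the log2 differences ran from -0.042 to 0.104 for RARA, -0.29 to 0.50 for CRABP1, -0.55 to 0.10 for CYP26C1, -0.29 to 0.14 for RARB, -0.12 to 0.32 for RDH10, -1.46 to -0.48 for CYP26B1, -0.53 to -0.21 for CYP26A1 and 0.20 to 0.55 for DHRS3. The cause was not tested. Over all genes, DESeq2 called 1 on convex plates and 147 between numbers 2 and 1, where DESeq2 size factors gave 1, no filter gave 108 and leaving out a library gave 0 to 11, against 0 in each main fit. DESeq2 gave DHRS3 no adjusted p in the shape contrasts. The number 3 contrast called 3756 genes, and 1048 to 5402 with a library left out. The replicate block changed no call: 0 genes passed with or without it in each shape contrast, with 2046 (concave) and 4222 (convex) at an unadjusted p under 0.05 in place of 1047 and 2135. Depth limits RARB and CYP26B1, with as few as 22 and 11 counts in a library.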
